A study of Mus musculus with 2 samples.

Results

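Autophagy genes were examined in activated macrophages derived from bone marrow of 2 genotypes, wild type (WT) and, by its label, SIRPα-KO (SIRPα-/-). The set holds 36 listed genes of the autophagosome machinery, picked by symbol, of which 35 had a row under that symbol among the 16263 genes of both deposited tables. Atg101 was found only under its older symbol, 9430023L20Rik, and is given separately. Both groups were C57BL/6 by the label of strain. In both, marrow was cultured with M-CSF-conditioned medium for 5 days and then activated for 6 h with interferon-γ (20 ng/ml) and lipopolysaccharide (100 ng/ml), and in both mCD47.ex, a reagent that the labels do not describe further, was present. The groups therefore share every agent and differ in genotype. By the sex-linked transcripts given below, they also differ in the sex of the pooled mice. No resting, untreated or mCD47.ex-free cells were compared here. Macrophages of 5 mice were mixed per genotype before RNA extraction, so there was 1 library per group and no measure of the spread between mice. The targeted allele is not described in the sources used here.

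Autophagy encloses part of the cytoplasm in a double membrane, the autophagosome, and delivers it to lysosomes. The ULK kinase complex starts the process, a class III phosphatidylinositol 3-kinase marks the membrane with the lipid PI3P, and ATG9 vesicles with the lipid transfer protein ATG2 let the membrane grow. Ubiquitin-like conjugation then attaches LC3 and GABARAP proteins to the membrane, where cargo receptors such as p62 (Sqstm1) bind them together with ubiquitinated cargo. In macrophages the same machinery takes up intracellular bacteria, limits inflammasome activity, and supports the uptake route known as LC3-associated phagocytosis. Transcript levels do not measure the flux through this pathway, which depends largely on kinases, lipidation and lysosomal turnover.

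Most of the machinery was at similar levels in both libraries, and the differences that stood out were on the lower side in SIRPα-KO. Values are FPKM (fragments per kilobase, corrected for library size), and a gene was kept when it reached 1 FPKM in at least 1 library. Of the members, 33 were kept, and Atg2b and Atg16l2 were under that limit. The log2 ratio of a gene was the difference of log2(FPKM + 1) between SIRPα-KO and WT, which damps the differences of weakly expressed genes, and 2-fold on this scale was used as the limit for calling a gene higher or lower. By this rule 1 member, Atg9a, was lower and 0 were higher, against 4.30% lower and 3.43% higher among all 10092 genes kept. The member share is thus near or under the background. At a limit of 1.5-fold, 6 of the 33 members were lower (Atg13, Atg9a, Wipi1, Atg4c, Gabarapl1 and Nbr1) and 0 were higher, where 10.2% of all genes kept were lower and 10.9% higher. The median log2 ratio was -0.11 over the members and 0.06 over all genes kept, and 20 of 33 members (60.6%) lay below 0 against 43.8% of all genes. Within 1.25-fold of equality were 20 members (60.6%) and 55.6% of all genes. With 1 library per group these are descriptions of 2 libraries, with no p-value.

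Depth sets what counting alone can blur. From the step between low values the libraries held about 11100000 reads (WT) and 10950000 reads (SIRPα-KO), so 10 reads on a transcript of 2 kb correspond to 0.45 FPKM in WT against 0.46 in SIRPα-KO. An approximate 95% interval for counting error (exact binomial, Clopper-Pearson, on the estimated reads of both libraries) lay wholly below equality for 11 of the 33 members, wholly above it for 7, and included it for 15. Of the 9947 genes kept that had a transcript length, 23.2% lay wholly below and 33.2% wholly above, so a difference past counting error was common in these 2 libraries. These intervals are for the plain ratio without the added 1 and cover counting error only. They do not cover error in the estimated reads, or differences between mice, cultures or library preparations.

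All 10 macrophage markers, which check the labelled cell type, were detected in both libraries, with summed levels of 11259 FPKM in WT against 11039 in SIRPα-KO. Lyz2 makes up most of that sum, and without it the other 9 summed to 4153 and 3831 FPKM. Of the 10, 1 was past 2-fold: Csf1r, the receptor for M-CSF, was lower in SIRPα-KO, at 248 and 109.8 FPKM. Sirpa itself was at 153.9 FPKM in WT against 71.5 in the library labelled SIRPα-KO, so its transcript was lower but not absent. Most neutrophil markers were lower in SIRPα-KO: the 9 found of 10 listed summed to 517 FPKM in WT against 249 in SIRPα-KO. None was at 0, 8 had a log2 ratio below 0, and 5 were lower past 2-fold. Of those 5, Elane rests on only about 36.7 and 5.39 reads. Mpo was the 1 that went the other way, at 2.38 FPKM in WT against 3.34 in SIRPα-KO. Dendritic cell markers summed to 57.6 and 188 FPKM, with 3 of 7 kept members higher and 1 lower. Without the chemokine Ccl22 they summed to 46.4 and 49.1. Those near-equal sums hold opposite differences: Ccr7 (6.93 and 23.8 FPKM) and Dpp4 (1.32 and 4.95) were higher in SIRPα-KO and Itgax (27.7 and 12.1) lower. Cd209a was listed at 0 in SIRPα-KO and at only 0.18 FPKM in WT. The summed B cell markers were at 5.91 and 2.47 FPKM, those of T and NK cells at 16.3 and 15.0, and those of mast cells and basophils at 3.46 and 6.21. Summed stromal and endothelial markers were at 12.7 and 10.7 FPKM and erythroid markers at 1.46 and 1.89. The T and NK cell markers Cd3e, Cd3g, Nkg7 and Ncr1 were listed at 0 in WT and Cd3g in SIRPα-KO, and the erythroid marker Klf1 in both. In SIRPα-KO, Cd3e, Nkg7 and Ncr1 were also near 0, at 0.06, 0.23 and 0.19 FPKM. Xist was at 47.5 FPKM in WT against 0.91 in SIRPα-KO, and the Y-linked Eif2s3y was listed at 0 in WT and at 21.4 in SIRPα-KO, so genotype cannot be told apart from the sex of the pooled mice. Malat1, a long RNA retained in the nucleus, was lower in SIRPα-KO (83.7 FPKM in WT, 32.9 in SIRPα-KO). The part of these differences in the autophagy results was not tested. In a bulk sample, fewer cells of a type and less RNA per cell also cannot be told apart.

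**Figure D1:**
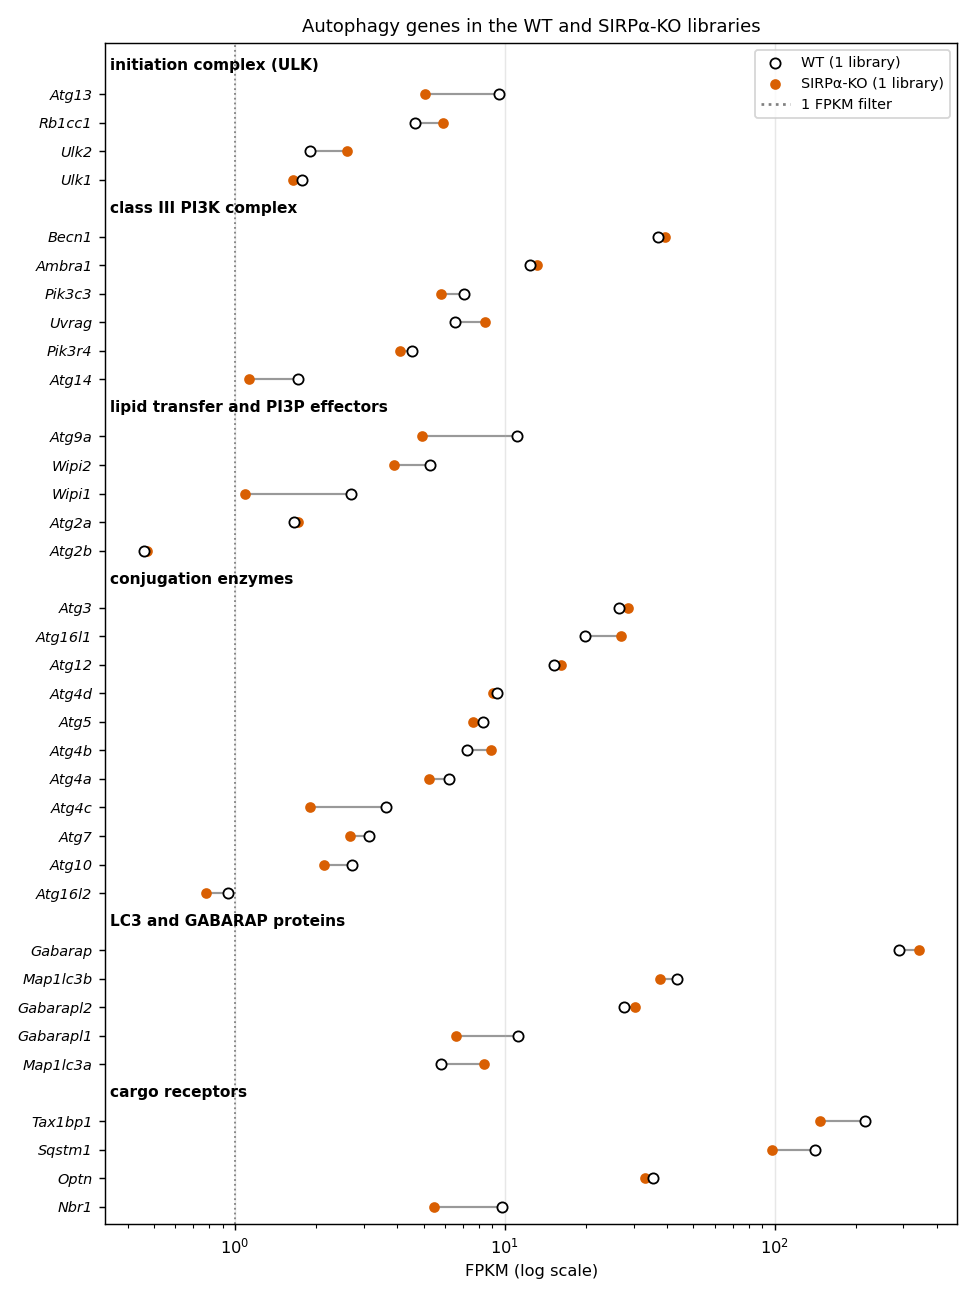
Level of each of the 35 members in FPKM (log scale, horizontal axis) in the WT library (open circles) and the SIRPα-KO library (filled circles), grouped by step and ordered by WT level; a grey line joins the libraries and the dotted line marks 1 FPKM. Levels run from Atg2b at 0.46 FPKM to Gabarap at 289 FPKM in WT, and for most members the circles of the 2 libraries lie close together.

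The levels differed far more between members than between libraries. Because FPKM is scaled to transcript length, levels of different genes can be set side by side. Gabarap (mean rank 1), Tax1bp1 (2), Sqstm1 (3), Map1lc3b (4) and Becn1 (5) were the most abundant members. The least abundant were the kinase gene Ulk1 (31), the lipid transfer gene Atg2a (32), Atg14 of the class III complex (33), the conjugation gene Atg16l2 (34) and the lipid transfer gene Atg2b (35). The adaptor end of the pathway, LC3 and GABARAP proteins with the cargo receptors, summed to 780 FPKM in WT and 708 in SIRPα-KO over 9 genes. The 24 kept members of the other steps summed to 209.8 and 207.7 FPKM.

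The initiation complex was split. Ulk1, the kinase that starts autophagosome formation, was at 1.77 FPKM in WT against 1.64 in SIRPα-KO, and its paralogue Ulk2 at 1.90 and 2.60. Rb1cc1 encodes FIP200, the large scaffold of the complex, and was at 4.66 and 5.89 FPKM. These 3 genes lay within 1.5-fold of equality. The counting interval of Ulk1 included 0, while those of Ulk2 (0.11 to 0.81) and Rb1cc1 (0.15 to 0.54) lay wholly above it. Atg13, the adaptor that links the kinase to FIP200, was the exception, at 9.53 FPKM in WT against 5.04 in SIRPα-KO, about 376 and 196 reads. Its log2 ratio was -0.80, with a counting interval from -1.18 to -0.67, which is short of the 2-fold limit. Atg101, the partner that stabilises ATG13, was at 6.87 and 5.47 FPKM under its older symbol, a log2 ratio of -0.28 with a counting interval from -0.79 to 0.12. The median over the 4 genes kept under their own symbol, which leaves out Atg101, was 0.11, and the mean was -0.07. With Atg101 added the middle gene would be Ulk1, at a log2 ratio of -0.07, so the sign of this median rests on that choice. A small list with Atg13 far from the others is poorly described by its median.

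The class III phosphatidylinositol 3-kinase complex lay close to equality, with a median log2 ratio of -0.03 over 6 genes and a range from -0.35 to 0.32. Becn1, which encodes the regulatory subunit Beclin 1, was at 36.9 FPKM in WT against 39.2 in SIRPα-KO. Ambra1, a Beclin 1 partner, was at 12.4 and 13.1 FPKM. Pik3c3, the catalytic subunit VPS34, was at 7.03 and 5.79 FPKM, with a counting interval wholly below 0 (-0.55 to -0.01). Pik3r4, the regulatory kinase-like subunit VPS15, was at 4.54 and 4.08 FPKM. The alternative partners Atg14 and Uvrag, which direct the complex to autophagosome formation and to endosomal traffic respectively, went in opposite directions in value. Atg14 was at 1.71 and 1.13 FPKM (log2 ratio -0.35, counting interval -1.17 to 0.00, about 65.5 and 42.7 reads), and Uvrag at 6.52 and 8.41 FPKM (log2 ratio 0.32, counting interval 0.17 to 0.57). Neither reached 1.5-fold on the scale used, and the difference between the 2 genes was not tested. Becn1 shares 43.9% of its exon bases with Cntd1 on the opposite strand. Cntd1 was at 10.1 FPKM in WT against 10.2 in SIRPα-KO. The use of strand in counting is not given in the sources used here, so reads of Becn1 and Cntd1 may not have been separated. Uvrag shares 17.6% of its exon bases with Gm45187, also on the opposite strand, which has no value here.

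Lipid transfer and PI3P effector genes held the only member past the limit. Atg9a encodes the multispanning membrane protein and lipid scramblase whose vesicles seed the autophagosome (gene number 245860, chromosome 1). It was at 11.1 FPKM in WT against 4.95 in SIRPα-KO, about 465 and 204 reads. That is 2.25-fold lower in plain FPKM and a log2 ratio of -1.03 with the added 1, and the counting interval ran from -1.41 to -0.93. Atg9a lies just past the 2-fold limit. It shares 31.8% of its exon bases with Gm29253, a GENCODE gene on the same strand that has no row in the tables, so how reads of the shared exons were assigned is not known. Wipi1, a PI3P-binding protein of the early autophagosome, was at 2.70 and 1.09 FPKM from only about 61.4 and 24.5 reads. Its log2 ratio of -0.82 is damped by the added 1, and the plain values differed 2.48-fold. Wipi2, the PI3P-binding protein that recruits ATG16L1, was at 5.27 and 3.89 FPKM, a log2 ratio of -0.36. The lipid transfer proteins themselves were close to equal: Atg2a was at 1.65 and 1.71 FPKM, and Atg2b, under the limit for keeping a gene, at 0.46 and 0.47. The list had a median of -0.59 over its 4 kept genes, and of -0.36 with Atg2b included.

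The conjugation enzymes were mostly close to equal, with 0 of 10 kept genes past 2-fold, 8 of 10 within 1.25-fold and a median log2 ratio of -0.08. Atg5, whose product is joined to ATG12 and completes the conjugating enzyme for LC3, was at 8.33 FPKM in WT against 7.62 in SIRPα-KO. Atg12 was at 15.2 and 16.1 FPKM. Atg7, the activating (E1-like) enzyme of both conjugations, was at 3.13 and 2.67 FPKM, and the E2-like enzymes Atg3 and Atg10 were at 26.5 and 28.7 and at 2.72 and 2.14 FPKM. All 5 of these genes had counting intervals that included equality. Atg16l1, which places the ATG12-ATG5 conjugate on the membrane and is needed for LC3-associated phagocytosis, had the largest positive value of the list, at 19.8 and 26.9 FPKM, a log2 ratio of 0.43 with a counting interval from 0.30 to 0.59. Its paralogue Atg16l2 was under the limit, at 0.94 and 0.78 FPKM.

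The ATG4 proteases, which prime LC3 and GABARAP proteins and later release them from membranes, did not share 1 direction. Atg4b was at 7.27 and 8.86 FPKM, Atg4a at 6.20 and 5.24, and Atg4d at 9.34 and 9.06. Atg4c was at 3.62 FPKM in WT against 1.90 in SIRPα-KO, a log2 ratio of -0.67 with a counting interval from -1.40 to -0.48. It was the lowest of the list in ratio and rests on about 120 and 62.1 reads. Atg4a shares 51.2% of its 50-base words with the pseudogene Atg4a-ps, which has no row in the tables, so its level is uncertain. Atg4d shares 19.3% of its exon bases with Kri1 on the opposite strand, which was at 11.3 and 18.1 FPKM.

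Among LC3 and GABARAP proteins, 0 of 5 genes passed 2-fold and the values went both ways, with a median log2 ratio of 0.13. Gabarap was by far the most abundant, at 289 FPKM in WT against 342 in SIRPα-KO. It made up 76.7% of the family's summed FPKM in WT against 80.5% in SIRPα-KO. Map1lc3b, the LC3 form used as the standard marker of autophagosomes, was at 43.3 and 37.7 FPKM, or 11.5% and 8.87% of the family. Gabarapl2 was at 27.7 and 30.5 FPKM and Map1lc3a at 5.78 and 8.34. Counting intervals lay wholly above 0 for Gabarap (0.18 to 0.30) and Map1lc3a (0.04 to 1.02). That of Map1lc3b lay wholly below 0 (-0.32 to -0.08), and that of Gabarapl2 included it (-0.04 to 0.31). Gabarapl1 was the low one in SIRPα-KO, at 11.2 FPKM in WT against 6.61 in SIRPα-KO, about 225 and 132 reads, with a log2 ratio of -0.68 and a counting interval from -1.07 to -0.43. The family sum was 377 FPKM in WT against 425 in SIRPα-KO, so the lower Gabarapl1 was a small part of the pool. Shared words were 12.2% for Gabarapl2 and 5.77% for Map1lc3b, most of them with genes that have no row in the tables, and 0% for the other 3 genes. Gabarapl1 shares 28.3% of its exon bases with 1700101I11Rik on the opposite strand, which was listed at 0 FPKM in both libraries.

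Cargo receptors were the only 1 of the 6 steps in which every kept gene had a negative log2 ratio at the scaling used. Of the kept lipid transfer and PI3P effector genes only Atg2a was above 0, at 0.03. With both other scalings Atg2a lay at -0.01, so every kept gene of that list was then negative too. Sqstm1 encodes p62, which links ubiquitinated cargo to LC3 and is itself degraded by autophagy. It was at 141 FPKM in WT against 98.0 in SIRPα-KO, about 3192 and 2186 reads, with a log2 ratio of -0.52 and a counting interval from -0.61 to -0.45. Tax1bp1, a ubiquitin-binding receptor that also restrains NF-κB signalling together with A20, was at 217 and 147 FPKM, a log2 ratio of -0.56 with a counting interval from -0.61 to -0.51. Nbr1, a receptor of similar build to p62, was at 9.74 and 5.47 FPKM, a log2 ratio of -0.73 with a counting interval from -1.05 to -0.62. Optn (optineurin), which binds ubiquitin and the kinase TBK1 on bacteria and damaged mitochondria, was at 35.5 and 32.9 FPKM, and its counting interval, from -0.24 to 0.03, included equality. None of the 4 reached 2-fold, and the list median was -0.54 against 0.06 for all genes kept. The summed level of the 4 receptors was 403 FPKM in WT against 283 in SIRPα-KO. Sqstm1 overlaps Mrnip, a gene on the opposite strand with no row in the tables, over 17.3% of its exon bases.

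**Figure D2:**
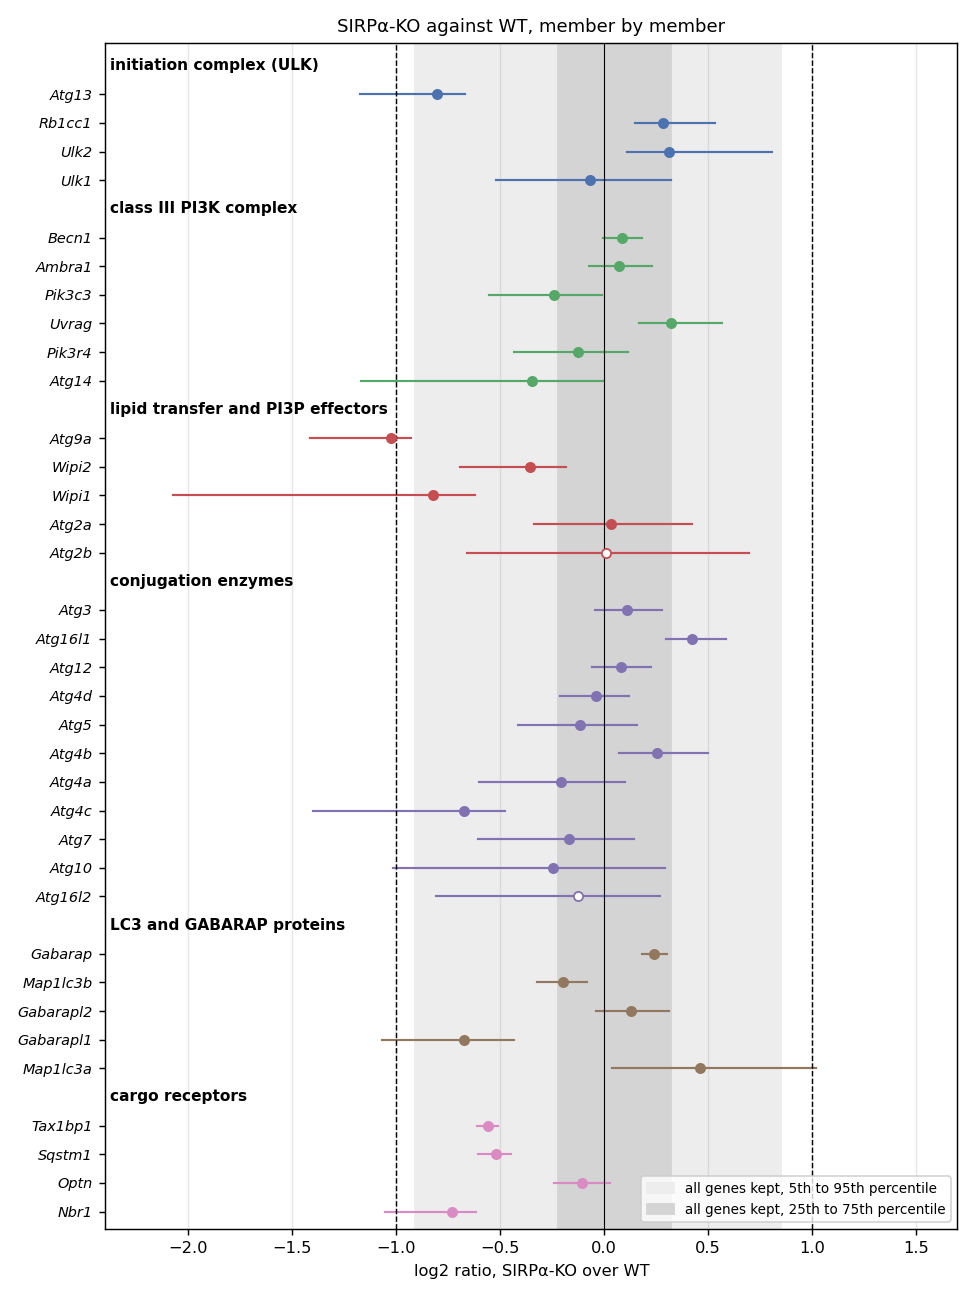
log2 ratio of SIRPα-KO over WT for each member (dots, from FPKM + 1) with the approximate 95% counting interval of the plain ratio (lines), grouped by step; open dots are the 2 members under 1 FPKM, dashed lines mark 2-fold, and grey bands give the spread of all genes kept (25th to 75th and 5th to 95th percentile). Atg9a at -1.03 is the only dot past a dashed line, and all 4 cargo receptors lie left of 0.

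Few of the other genes of the pathway were past the limit. Of 73 further genes listed for upstream control, membrane supply, fusion with lysosomes and selective receptors, 67 were kept, 2 were higher by 2-fold and 0 lower, near or under the 3.43% and 4.30% of all genes kept, with a median log2 ratio of -0.04. At 1.5-fold 7 were higher and 5 lower, where 6 members were lower and 0 higher; the difference between the sets was not tested. Among the 67 kept was Rubcn, read from its older symbol 1700021K19Rik and within 1.5-fold of equality (2.33 FPKM in WT, 1.77 in SIRPα-KO). In the mTORC1, TSC and AMPK list, whose kinases hold autophagy in check or start it according to nutrients and energy, 0 of 15 were past 2-fold, 3 were higher and 0 lower at 1.5-fold, and the median was 0.19. Rheb, the GTPase that activates mTORC1 and the most abundant of that list, was at 28.9 and 33.1 FPKM. In the list of fusion genes 0 of 16 were past 2-fold and the median was -0.03, and Lamp1, the lysosomal membrane protein, was at 641 and 681 FPKM. In the list of membrane supply and PI3K modulators 0 of 13 were past the limit (median -0.04), and Sh3glb1, a Beclin 1 partner through UVRAG, was at 138 and 133 FPKM.

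The 2 genes past the limit came from the remaining lists. Tfec belongs to the MiT/TFE family of transcription factors, whose members TFEB and TFE3 drive autophagy and lysosomal genes, and it is expressed mainly in myeloid cells. It was at 7.51 FPKM in WT against 21.4 in SIRPα-KO, a log2 ratio of 1.39. Among its relatives, Tfeb was at 3.20 and 1.80 FPKM, Tfe3 at 33.2 and 27.2 and Mitf at 37.2 and 31.4. These 3, named after their values were seen, were short of 2-fold. That list held 7 genes, with 1 higher, 0 lower and a median of -0.14. In the selective receptor list 1 of 16 was higher, 0 were lower and the median was -0.13. Of the 16, 11 lay below 0 and 5 above. Fam134b, named after its value was seen, was at 8.43 FPKM in WT against 3.89 in SIRPα-KO. That is 2.17-fold lower in plain FPKM, while the log2 ratio with the added 1 was -0.95, short of the limit. The higher gene was Stbd1, a glycogen-binding receptor, at 0.76 FPKM in WT against 3.08 in SIRPα-KO, both low levels.

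**Figure D3:**
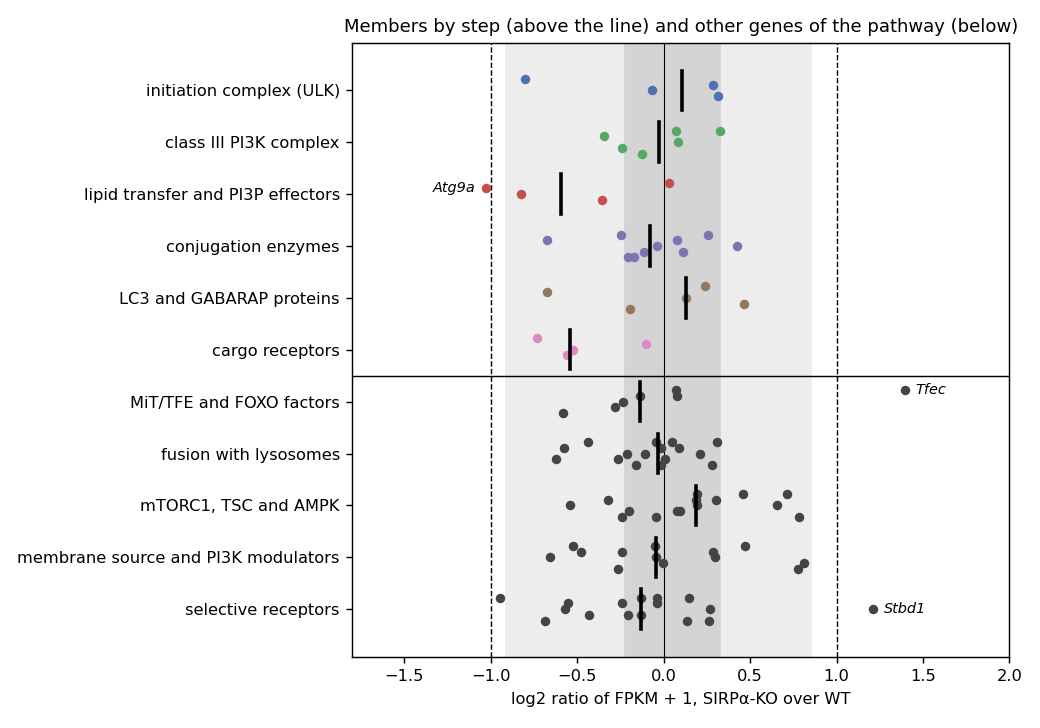
log2 ratio of FPKM + 1 (horizontal axis) for the kept members by step (coloured, above the line) and for the kept genes of the other pathway lists (dark grey, below it); each dot is a gene, black bars are list medians, dashed lines mark 2-fold and grey bands are as for all genes kept (25th to 75th and 5th to 95th percentile). Medians lie at -0.59 for lipid transfer and PI3P effectors and at -0.54 for cargo receptors, and between -0.14 and 0.19 for the other lists; Atg9a, Tfec and Stbd1 are the dots past 2-fold.

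Promoters of the members were searched for the palindrome bound by MiT/TFE factors. RefSeq promoters (GRCm38.p6, 250 bases before to 50 after the start site) were at hand for 30 of the 36 members. The letters searched on both strands were TCACGTGA and GTCACGTG, which overlap by 7 bases where both occur. At least 1 of them was in 3 members, Atg3, Atg7 and Atg14 (10%), and in 2.77% of all 27025 genes with a promoter in the same table. The members' upstream 250 bases were also richer in GC (median 59.2% against 52.4% of all promoters) and in CG pairs (median 15 against 6), and both motifs hold a CG; the part of this in the shares was not tested. In 22 of the members' 34 promoter entries the first 30 bases after the start site lay near the start of a GENCODE transcript of the gene, so some start sites differ between the annotations. The windows are printed because they are the members' only matches, 5′ to 3′ in the direction of the gene, with the matches in capitals.
Atg3: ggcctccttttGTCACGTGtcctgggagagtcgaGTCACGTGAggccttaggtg
Atg7: ccatattggtgGTCACGTGtgcagtaagtg
Atg14: aaacaaaatccCACGTGACtggccctgagc
The Atg3 window lies on the plus strand at chr16:45158722-45158775, with matches from -96 to -65 relative to the start site. The Atg7 window, also on the plus strand, is at chr6:114670951-114670980, with its match from -134 to -127. The Atg14 window is on the minus strand at chr14:47568417-47568446, and its match, which is GTCACGTG read on the other strand, spans the start site from -1 to 7. A match of letters is not a shown binding site. The 3 genes with a match had log2 ratios of 0.11 (Atg3), -0.17 (Atg7) and -0.35 (Atg14), all with counting intervals that included equality. The letters were in no other member's window, those of Atg9a and Sqstm1 included. Any link between the letters and the ratios was not tested.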

How the data were processed

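RNA of 2 libraries, 1 per genotype, was compared. The authors deposited 1 table per library with a gene number, a symbol and 1 value per gene; the deposited values were taken as FPKM, a unit read from the spacing and sums of the numbers, since no header gives it. Per the submitters' processing notes, mm9, R 3.3.3 and DESeq2 were used, without a stated role. Which aligner and counter were used, and whether strand was used, is not given in the sources used here. Depth was estimated from the spacing of low values of genes with 1 transcript (lengths from GENCODE). Of the low values, 75.1% (WT) and 72.9% (SIRPα-KO) lay within 0.15 of a whole read, too few to recover reads for a count test. Ratios used log2(FPKM + 1), a minimum of 1 FPKM in 1 library and a 2-fold limit, computed with pandas 2.3.3 and numpy 2.4.6. The depth estimate and the call of a gene as higher or lower were tried on simulated reads. Named genes were all members, every other pathway gene past the limit and otherwise the most abundant gene of its list; exceptions are marked. Members and lists were chosen with earlier results of these data known. RefSeq and GENCODE tables of GRCm38, a later build than mm9, served for chromosomes, overlaps, 50-base words shared between transcripts and promoters. Protein sequences were not used here. Alternatives were a pseudocount of 0.1, no filter, a minimum of 5 FPKM, 2 other scalings, a 1.5-fold limit and the older symbol.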

Additional observations from a re-analysis of the deposited data

How the results depend on the processing

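No paired analysis was possible because each genotype had 1 library, and no library could be left out. The count of members higher was 0 under every setting tried. The count lower was 1, but 2 with a pseudocount of 0.1, where Wipi1 joined Atg9a at a log2 ratio of -1.23 and 6.70% of all genes kept were lower, and 6 with the 1.5-fold limit. Atg9a stayed past 2-fold in each setting where its ratio was computed, from -1.15 to -1.03. The median over all members ranged from -0.18 to -0.07. The list of lipid transfer and PI3P effectors moved from -0.59 to -0.79 with the pseudocount of 0.1, to -0.36 with no filter and to -0.69 with a minimum of 5 FPKM. That minimum, which kept 24 members, also moved initiation from 0.11 to -0.26, the class III complex from -0.03 to 0.079 and conjugation from -0.08 to 0.080, each a change of sign. These lists lost members there. With the older symbol only the counts were recomputed, so the initiation median leaves out Atg101 (log2 ratio -0.28) in every setting. Cargo receptors ranged from -0.61 to -0.54. Median-of-ratios and trimmed-mean scaling shifted SIRPα-KO by -0.07 on the log2 scale. Of the members 2, Atg2a and Atg2b, changed sign between settings, both close to 0. Depth limits the low members: Wipi1 rests on about 24.5 reads in SIRPα-KO.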
